A study of Mus musculus with 216 samples.

Results

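Young lung is represented by 12 libraries, 1 for each circadian time (CT) from 18 to 62 in steps of 4 h, out of 216 libraries in the series. They were taken by their labels (lung, young), and a 24 h cosine was fitted to every gene, so that genes could be ordered by the time of day at which they peak. Times from CT 0 to CT 12 are called subjective day and times from CT 12 to CT 24 subjective night, and CT 26 and CT 50 are both read as 2 h after the start of the day. The mice were male C57B6/J-NIA animals, an inbred laboratory strain with no allele or treatment named in the labels, aged 6 months. Lung of aged (18 months) and old (27 months) mice of the same strain and sex (12 libraries each, together called older lung) and heart and kidney of young mice (12 libraries each) serve for comparison. Each library pools 2 samples, the sources used here give neither lighting nor feeding, and nothing says whether lung, heart and kidney came from the same animals. No time point has a second library, so p-values measure the scatter of libraries around the fitted curve over 2 cycles. In the comparison of day with night they measure scatter around the mean of each window instead.

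The circadian clock of mammalian cells is a feedback loop of transcription. ARNTL (also called BMAL1) pairs with CLOCK or NPAS2 and binds E-boxes, which switches on Per, Cry, Nr1d and the PAR bZIP genes. PER and CRY proteins then silence the activators, NR1D1 and NR1D2 (REV-ERB) repress Arntl and Npas2 through ROR elements where ROR proteins activate, and DBP, TEF and HLF act on D-boxes where NFIL3 represses. In lung the clock is known for timing airway tone, the recruitment of neutrophils through epithelial chemokines, and antioxidant defence.

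Young lung libraries held 20993393 to 25804750 counts, aged lung 24916895 to 34538612 and old lung 2700433 to 14059677. Levels are given in CPM (counts-per-million of the library total). Lung markers were present throughout: the 5 alveolar type 2 markers, among them the surfactant gene Sftpc, summed to between 8822 and 11809 CPM, and the 3 club cell markers to between 3778 and 5887 CPM. Some libraries stood apart in markers of other cells or organs. Of the 4 liver markers the sum was 267 CPM at CT 38 and at most 12.4 CPM elsewhere, the 5 neutrophil markers summed to 1443 CPM at CT 30 and to between 62.7 and 223 CPM elsewhere, and the 5 red blood cell and 5 skeletal muscle markers were highest at CT 26 (4684 and 919 CPM). Cardiac muscle markers ran from 59.3 to 1188 CPM. In such bulk samples fewer cells of a type and less RNA per cell cannot be told apart.

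In the quasi-likelihood fit of edgeR, with p adjusted by Benjamini-Hochberg over all genes, 207 of 18334 genes were rhythmic in young lung at an adjusted p under 0.05, which is 1.13% of the genes tested. Amplitude is given on the log2 scale as the distance from the mean to the peak of the fitted curve, and its median was 0.54 among the rhythmic genes and 0.13 among all genes tested. Most rhythmic genes peaked in the night: 150 (72.5%) had their peak in subjective night and 57 in subjective day. The peaks were not spread evenly. They gathered around dusk, with 106 of 207 between CT 9 and CT 15, and a second group of 36 lay between CT 21 and CT 24. Peaks were sparse in the first 9 h of the day, with 9 genes between CT 0 and CT 3, 8 between CT 3 and CT 6 and 7 between CT 6 and CT 9. They were also sparse in the night between CT 18 and CT 21, with 9 genes. Because 35 peaks lay within 1 h of CT 12, and 25 within 1 standard error (SE) of CT 0 or CT 12, the split at dusk is blurred: Herpud1 at CT 11.98 counted as day and Tspan4 at CT 12.2 as night. The count of 207 fell to 120 without the library of CT 62 and to 134 without that of CT 50, and 118 and 130 of the original genes were still called in those fits.

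**Figure D1:**
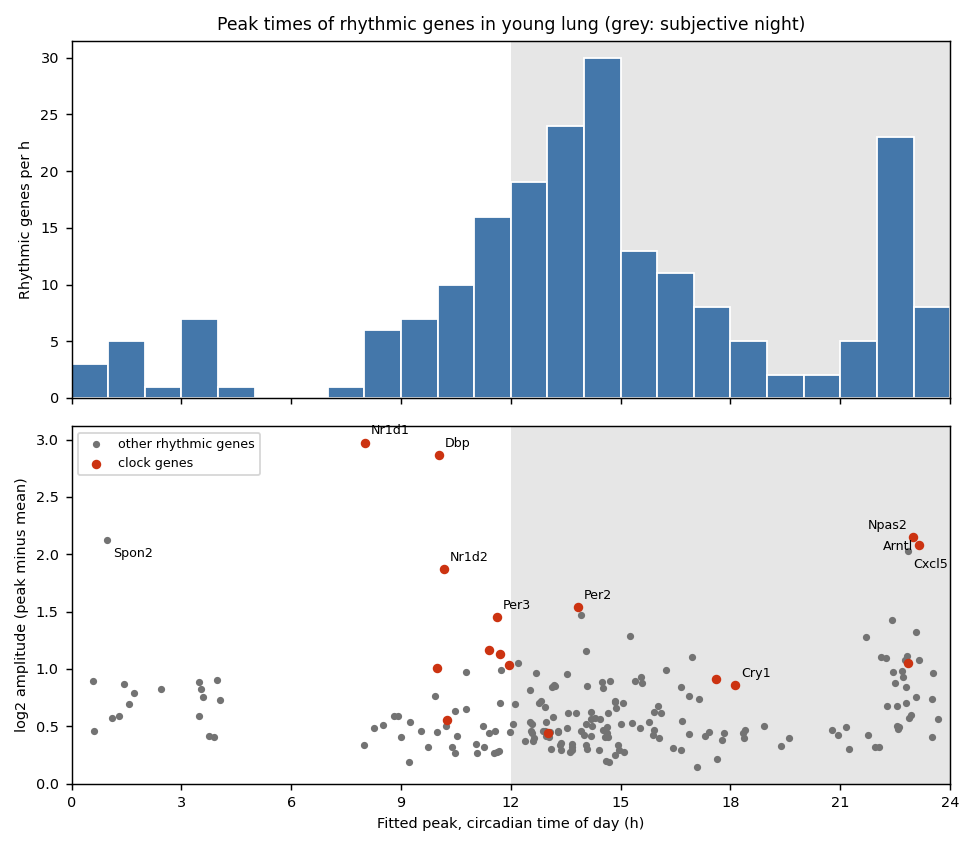
Upper panel: number of rhythmic genes of young lung (vertical axis) by fitted peak in bins of 1 h (horizontal axis, circadian time of day in h). Lower panel: log2 amplitude of the same 207 genes against their peak, with clock genes in red. The tallest bin is CT 14 to 15 with 30 genes, and a separate crest of 23 genes stands at CT 22 to 23, and Nr1d1 and Dbp stand highest on the amplitude axis.

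A cosine placed the same gene at nearly the same time in both cycles when each was fitted alone. In 186 of the 207 rhythmic genes the 2 peaks differed by less than 2 h, with a median difference of 0.953 h. These single-cycle fits use the libraries that chose the genes and carry no test.

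**Figure D2:**
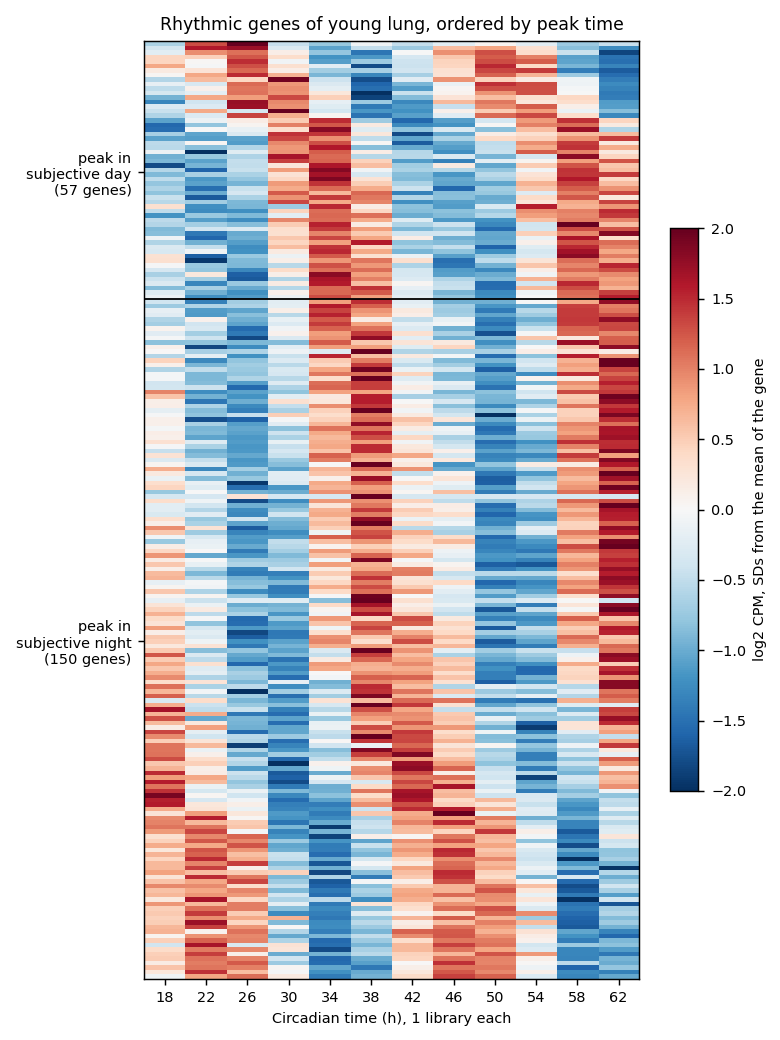
Each row is 1 of the 207 rhythmic genes of young lung, ordered by fitted peak from top (CT 0) to bottom (CT 24), and each column 1 library by circadian time. Colour gives log2 CPM in standard deviations from the mean of the gene. Rows above the line peak in subjective day (57 genes) and rows below it in subjective night (150 genes).

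The clock lists held 19 genes, and 16 of them were rhythmic. Activators peaked late in the night. Arntl, the partner of CLOCK, was at 59.9 and 57.7 CPM at CT 22 and CT 46 and at 3.10 and 4.11 CPM at CT 34 and CT 58. Its fitted peak was CT 23.1 ± 0.25 h (SE) and its log2 amplitude 2.08 ± 0.14 (adjusted p = 2.07e-10), a 17.9-fold swing from trough to peak. Npas2, the other partner protein, peaked close to Arntl, at CT 23.0, with a log2 amplitude of 2.15 ± 0.15 (adjusted p = 4.21e-09), from 1.25 CPM at CT 34 to 30.5 CPM at CT 22. Clock itself moved less, between 65.1 and 126 CPM, with a fitted peak at CT 22.8 and a log2 amplitude of 0.34 ± 0.06. It did not pass the test (adjusted p = 0.152), though it did by DESeq2, when the 12 young libraries were fitted alone and in the fit with heart and kidney. In older lung it was called (adjusted p = 0.0301).

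The nuclear receptors that feed back on the activators had their peaks on the opposite side of the day. Nr1d1, a heme-binding repressor, rose from 3.61 CPM at CT 18 and 5.81 CPM at CT 42 to 297 CPM at CT 34 and 243 CPM at CT 58. Its peak at CT 8.01 ± 0.26 h and its log2 amplitude of 2.97 ± 0.20 (adjusted p = 9.11e-10) gave a 61.7-fold swing, the widest of the 207 rhythmic genes in this fit. The 2 cycles of Nr1d1 overlay closely, with 203 and 210 CPM at CT 30 and CT 54. Nr1d2, its sister gene, peaked later at CT 10.2 ± 0.22 h with a log2 amplitude of 1.87 ± 0.11, between 23.8 and 352 CPM (median 130). Rora, an activator at the same elements, stayed between 68.5 and 116 CPM and did not pass (adjusted p = 0.457), though it did when the 12 young libraries were fitted alone and in the fit with heart and kidney.

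Repressors of the Per and Cry families followed each other from late day into the night. Per1 reached 176 and 184 CPM at CT 34 and CT 58 against 28.0 and 22.8 CPM at CT 26 and CT 50, with a peak at CT 11.4 ± 0.69 h. Per3 peaked at CT 11.6 ± 0.27 h and Per2 at CT 13.8 ± 0.49 h, and the level of Per2 ran from 9.92 CPM at CT 26 to 140 CPM at CT 38. Cry2 peaked at CT 13.0 ± 0.52 h with a log2 amplitude of 0.44 ± 0.06. Cry1 came last, at CT 18.1 ± 0.47 h, with 62.2 and 65.1 CPM at CT 42 and CT 46 and 17.7 and 16.3 CPM at CT 30 and CT 54. Among the basic helix-loop-helix repressors that compete for E-boxes, Bhlhe41 peaked at CT 9.98 and Bhlhe40 at CT 10.3, with log2 amplitudes of 1.01 ± 0.10 and 0.55 ± 0.06. Ciart, an inhibitor of the activator pair, had narrow spikes of 42.1 and 36.7 CPM at CT 34 and CT 58 beside 21.6 CPM at CT 22. It did not pass the cosine test (adjusted p = 0.324), and it passed without the library of CT 22 (adjusted p = 0.0329) or with the 6 times of day fitted as separate levels.

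The activating D-box factors peaked between CT 10.05 and CT 11.96. Dbp stood at 389 and 344 CPM at CT 34 and CT 58 and at 9.28 and 9.35 CPM at CT 22 and CT 46, with a peak at CT 10.05 ± 0.27 h and a log2 amplitude of 2.87 ± 0.20 (adjusted p = 1.32e-11). Hlf peaked at CT 11.7 ± 0.54 h and Tef at CT 11.96 ± 0.22 h, counted as day, with log2 amplitudes of 1.13 ± 0.16 and 1.04 ± 0.06. Nfil3, the repressor of the same sites, peaked at the other end of the cycle at CT 22.8 ± 0.54 h, from 4.11 CPM at CT 58 to 22.3 CPM at CT 46. Its call was marginal (adjusted p = 0.0483) and was lost when any single library other than that of CT 30 was left out, with adjusted p between 0.0571 and 0.183. The 6 kinases and ubiquitin ligases that act on clock proteins, such as Csnk1d and Gsk3b, included no rhythmic transcript by edgeR, and 1 of them, Csnk1e, had an unadjusted p under 0.05. Over all genes 1.13% were rhythmic and 9.79% had an unadjusted p under 0.05, so a list of 6 is not set apart from them.

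**Figure D3:**
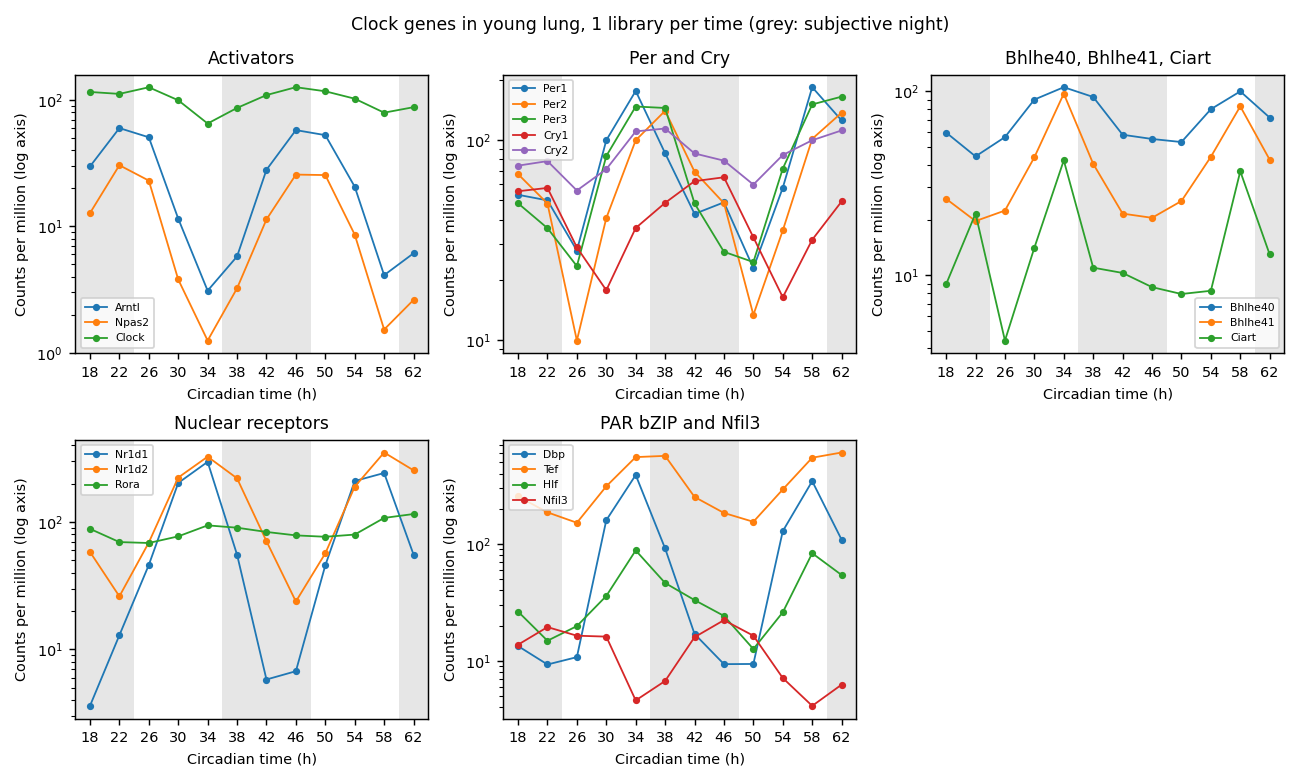
CPM on a log axis (vertical) against circadian time in h (horizontal) for 18 clock genes of young lung, 1 point per library. Grey marks subjective night. Arntl and Npas2 crest at CT 22 to 26 and 46 to 50, and Nr1d1 and Dbp crest at CT 34 and near CT 58. Clock and Rora have the smallest log2 amplitudes of the genes drawn (0.34 and 0.30).

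Promoters of the rhythmic clock genes are shown because the 3 binding motifs of the loop can be read in them. RefSeq windows of GRCm38.p6, 250 bases before to 50 after each start, matched 13 of the 16 genes with 16 windows. The motifs were searched on both strands: CACGTG (E-box), TTATGTAA or TTACGTAA (D-box) and TAGGTCA (ROR element). An E-box stood in windows of 4 genes (Per1, Cry1, Bhlhe41 and both starts of Tef), against 7.15% of all 32851 windows. These genes peaked at CT 11.4, 18.1, 9.98 and 11.96. Capitals mark the motif in each stretch, printed 5′ to 3′ on the strand of the gene.
Per1 (chr11:69098756-69098815, plus strand, motif 166 bases before the start): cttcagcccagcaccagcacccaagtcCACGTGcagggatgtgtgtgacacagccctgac
Cry1 (chr10:85185082-85185141, minus strand, 60 bases before the start): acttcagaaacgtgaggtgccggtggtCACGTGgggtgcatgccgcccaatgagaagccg
Bhlhe41 (chr6:145865541-145865600, minus strand, 153 bases before the start): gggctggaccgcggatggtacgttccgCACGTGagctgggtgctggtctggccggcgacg
Tef, upstream start (chr15:81802519-81802578, plus strand, 127 bases before the start): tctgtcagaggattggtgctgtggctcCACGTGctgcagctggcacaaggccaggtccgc
Tef, downstream start (chr15:81811249-81811308, plus strand, 138 bases before the start): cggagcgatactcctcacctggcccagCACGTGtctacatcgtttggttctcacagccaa

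ROR elements were found in windows of 2 genes, Arntl and Nfil3, against 2.61% of all windows, and these are genes whose fitted peaks lay at CT 23.1 and CT 22.8. In Nfil3 the element is on the opposite strand, so that it reads TGACCTA. D-boxes were found in 1 gene, Per3, which held 2 of them, against 1.06% of all windows. No window held more than 1 of the 3 kinds of motif. Windows of Nr1d1, Nr1d2, Dbp, Hlf, Npas2 and Cry2 had none of these letters, which says only that these 300 bases lack them.
Arntl (chr7:113207529-113207558, plus strand, element 30 bases after the start): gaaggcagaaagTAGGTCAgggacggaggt
Nfil3 (chr13:52981040-52981099, minus strand, element 12 bases before the start): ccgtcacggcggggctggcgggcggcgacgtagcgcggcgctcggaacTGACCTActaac
Per3 (chr4:151044806-151044880, minus strand, boxes 205 and 158 bases before the start): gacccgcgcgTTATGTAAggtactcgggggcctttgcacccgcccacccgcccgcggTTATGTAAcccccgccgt

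Outside the clock lists 191 genes were rhythmic, 48 with a peak in the day and 143 in the night. Among the 12 day genes with the smallest p, an early group peaked within about 4 h of subjective dawn. Spon2, a secreted matrix protein, led them at CT 0.98 ± 0.36 h: it was at 29.3 and 37.6 CPM at CT 26 and CT 50 and at 1.58 and 0.966 CPM at CT 38 and CT 62, a log2 amplitude of 2.12 ± 0.20 (adjusted p = 1.71e-08). Il18r1, a chain of the interleukin-18 receptor, peaked at CT 1.11 and Dpy19l3, a protein mannosyltransferase, at CT 0.604. Cxcl15, a chemokine made by lung epithelium, peaked at CT 3.48 ± 0.49 h with a log2 amplitude of 0.59 ± 0.08. Its level was 1488 and 1733 CPM at CT 26 and CT 50 and 624 and 686 CPM at CT 38 and CT 62, and the day and night libraries overlapped between 967 and 1025 CPM. Gm43085, an unnamed transcript that begins less than 1 kb after the end of Cxcl15 on the same strand of chromosome 5 (90803261 to 90806392, GRCm38), had its peak at CT 3.49, and reads from the end of Cxcl15 cannot be told apart from its own. Acoxl, an acyl-CoA oxidase-like gene, peaked at CT 4.06.

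The late day group peaked between CT 9 and CT 12. Tex11, better known from meiosis, ran from 2.77 CPM at CT 26 to 9.89 CPM at CT 34 with a peak at CT 10.8 and a log2 amplitude of 0.97 ± 0.09. Pik3ip1, an inhibitor of phosphoinositide 3-kinase, peaked at CT 9.97, Rasd2, a Ras-like GTPase, at CT 9.92, and Pfkfb3, which makes an activator of glycolysis, at CT 10.8. Pfkfb3 was at 161 and 192 CPM at CT 34 and CT 58 and between 54.2 and 108 CPM in the other libraries, so that both crests stood clear of the rest. Rbm3, an RNA-binding protein induced by cold, peaked at CT 9.54 ± 0.58 h (log2 amplitude 0.46 ± 0.07), with 223 CPM at CT 30 as its highest value and 113 CPM at CT 46 as its lowest. The other cold-induced gene, Cirbp, had a log2 amplitude of 0.31 and a peak at CT 6.2 and did not pass (adjusted p = 0.404). Herpud1, which serves the disposal of misfolded proteins at the endoplasmic reticulum, was the 1 rhythmic member of 14 tested on that list, between 153 and 285 CPM.

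The 12 night genes with the smallest p fell into 2 waves, 1 near dusk and 1 late in the night. Other rhythmic genes peaked between these waves, with 32 between CT 15 and CT 18 and 9 between CT 18 and CT 21. Genes of the dusk wave had their crests at CT 34 to 38 and CT 58 to 62. Wee1, the kinase that holds back mitosis, peaked at CT 13.1 ± 0.22 h with a log2 amplitude of 0.84 ± 0.05 (adjusted p = 6.53e-09), at 47.0 and 46.7 CPM at CT 38 and CT 62 and 14.4 and 15.2 CPM at CT 26 and CT 50. Tspan4, a tetraspanin, peaked at CT 12.2, Rev1, a DNA polymerase that copies past lesions, at CT 13.5, Fam107a, an actin-associated protein, at CT 14.1 and Cys1, a protein of primary cilia, at CT 14.5. Fam107a had a log2 amplitude of 1.16 ± 0.16, from 6.91 CPM at CT 50 to 45.0 CPM at CT 62.

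The late night wave had its crests near CT 22 and CT 46, close to Arntl. Leo1, a subunit of an elongation complex of RNA polymerase II, was at 34.7 and 38.01 CPM at CT 22 and CT 46 and at 10.3 and 10.7 CPM at CT 34 and CT 58, with a peak at CT 22.7 ± 0.31 h. Dtx4, a ubiquitin ligase of the Notch pathway, peaked at CT 22.3 ± 0.19 h, and the cosine took up 0.979 of its variance. Rasl11a, a Ras-like GTPase, peaked at CT 21.7 and ranged from 6.84 to 57.4 CPM (median 30.3). Spaar, which encodes a small lysosomal polypeptide, peaked at CT 22.8, Ikzf4, an Ikaros-family zinc finger protein, at CT 23.5 and 1200007C13Rik at CT 22.4. Adm, the precursor of the vasodilator adrenomedullin, peaked at CT 22.3 ± 0.32 h with a log2 amplitude of 1.10 ± 0.09, at 14.996 and 16.8 CPM at CT 22 and CT 46 and 3.05 and 3.76 CPM at CT 34 and CT 58.

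Ordered by amplitude with a mean of at least 1 CPM, the night genes began with Cxcl5, an epithelial chemokine that attracts neutrophils. Cxcl5 was at 10.8 and 7.53 CPM at CT 22 and CT 46 and at 0.554 and 0.313 CPM at CT 34 and CT 58, with a peak at CT 22.9 ± 0.28 h and a log2 amplitude of 2.03 ± 0.15 (adjusted p = 1.52e-04). Zbtb16, 1200007C13Rik, Fam124b and Mettl21e came next, with log2 amplitudes between 1.29 and 1.47. Mettl21e, a methyltransferase gene of skeletal muscle, was at its lowest (0.728 CPM) at CT 26, where the sum of skeletal muscle markers was highest. Its call was lost without the library of CT 26, 30, 50, 54 or 62, with adjusted p up to 0.103, and when the 12 young libraries were fitted alone. On the day side Spon2, Tex11 and Gm43085 were joined by Serpina3h and Gm10371, each carried by 1 library. Serpina3h was at 4.999 CPM at CT 30 and at most 1.99 CPM elsewhere, and Gm10371 at 11.8 CPM at CT 26 and at most 4.66 CPM elsewhere. Their adjusted p rose to 0.214 and 0.436 without that library. Serpina3h also lost its call without the library of CT 38, 42 or 62, and Gm10371 without that of CT 22, 34, 58 or 62.

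Further lists of genes were counted beside the 1.13% of all genes that were rhythmic. Members and lists were chosen with earlier results of these data known, so the shares below describe the lists and test no enrichment. Of the 10 known clock outputs, 6 were rhythmic: Usp2, a deubiquitinase, peaked at CT 11.7 (day), and Tspan4, Wee1, Fmo2, Dtx4 and Cdkn1a in the night. Cdkn1a, the cyclin-dependent kinase inhibitor p21, peaked at CT 22.5 ± 0.63 h and was at 97.7 CPM at CT 46 and 37.6 CPM at CT 34. Wee1, Dtx4 and Tspan4 were also among the 12 night genes of smallest p. Hif3a, Nampt, Por and Tsc22d3 did not pass. Usp2 lost its call without the library of CT 26 or CT 34 (adjusted p = 0.066 and 0.0863).

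Of 17 heat shock genes tested, 6 were rhythmic (35.3%), all with peaks between CT 16.2 and CT 19.6, and their list had a median log2 amplitude of 0.37 against 0.13 over all genes. Hspa8, the constitutive HSP70 chaperone, was at 1525 and 1630 CPM at CT 18 and CT 42 and at 821 and 734 CPM at CT 30 and CT 54, with a peak at CT 18.4 ± 0.70 h (log2 amplitude 0.47 ± 0.09, adjusted p = 0.0183). Hspb1, a small chaperone, was at 202 and 193 CPM at CT 18 and CT 42 and between 76.1 and 144 CPM elsewhere. Stip1 and Fkbp4, co-chaperones of HSP90, peaked at CT 19.6 and CT 19.4 with log2 amplitudes of 0.40 ± 0.08 and 0.32 ± 0.09. The inducible pair Hspa1a and Hspa1b was at 41.6 and 63.1 CPM at CT 38 and at 8.78 and 8.58 CPM at CT 62, the same time of day 1 cycle later. At CT 18 the pair was at 16.01 and 24.9 CPM, and at CT 42 at 25.1 and 33.5 CPM. Neither gene passed without the library of CT 38, which stood apart in liver markers (adjusted p = 0.163 and 0.105). Both calls were also lost without the library of CT 26, 30, 42, 50 or 54 (adjusted p between 0.0575 and 0.0892). That of Hspa1b was lost without CT 34 or CT 58 as well (0.0527 and 0.0526). The part of liver material in these values was not tested. Reads can be shared between these 2 near-identical genes, whose promoter windows were identical at 296 of 300 bases. The calls were fragile: none of the list was rhythmic without the library of CT 42, 1 was without that of CT 30 and 6 were without that of CT 22 or CT 46. With the 6 times of day as separate levels none of the 6 kept its call. The 11 members that did not pass, such as Hsp90aa1 and Hsph1, had fitted peaks between CT 15.9 and CT 22.2.

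The heat shock element GAANNTTC, chosen as a motif after these values were seen, stood in the windows of 4 of the 5 rhythmic members found in RefSeq and in 7.86% of all windows. Hspa8 had no window and Stip1 held no match. Members of the list that were not rhythmic were not searched, so this share says nothing about rhythm. The stretches show how closely the inducible pair resembles itself.
Hspa1a (chr17:34972227-34972286, minus strand): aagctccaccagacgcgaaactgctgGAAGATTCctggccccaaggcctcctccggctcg
Hspa1b (chr17:34959309-34959368, minus strand): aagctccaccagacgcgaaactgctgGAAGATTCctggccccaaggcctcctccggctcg
Hspb1 (chr5:135887786-135887845, plus strand): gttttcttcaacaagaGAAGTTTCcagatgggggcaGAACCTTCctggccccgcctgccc
Fkbp4 (chr6:128438774-128438833, minus strand): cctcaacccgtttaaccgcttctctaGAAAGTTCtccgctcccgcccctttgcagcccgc

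Of 16 glucocorticoid targets tested, 4 were rhythmic (25%): Per1 at CT 11.4, Fkbp5 at CT 13.5, Zbtb16 at CT 13.9 and Cdkn1a at CT 22.5. Fkbp5, a co-chaperone that dampens the glucocorticoid receptor, was at 72.1 and 87.8 CPM at CT 38 and CT 62 and at 16.5 and 18.1 CPM at CT 26 and CT 50. Its log2 amplitude was 0.95 ± 0.17 (adjusted p = 3.83e-04). Zbtb16, a zinc finger repressor, swung from 7.82 CPM at CT 50 to 140 CPM at CT 62, and it was also at 57.5 CPM at CT 46, between its crests. Its call (adjusted p = 0.0197) was lost without the library of CT 26, 30, 50 or 62, with adjusted p up to 0.176. Klf9 and Tsc22d3 had log2 amplitudes of 0.49 and 0.62 and adjusted p of 0.0603 and 0.0521.

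**Figure D4:**
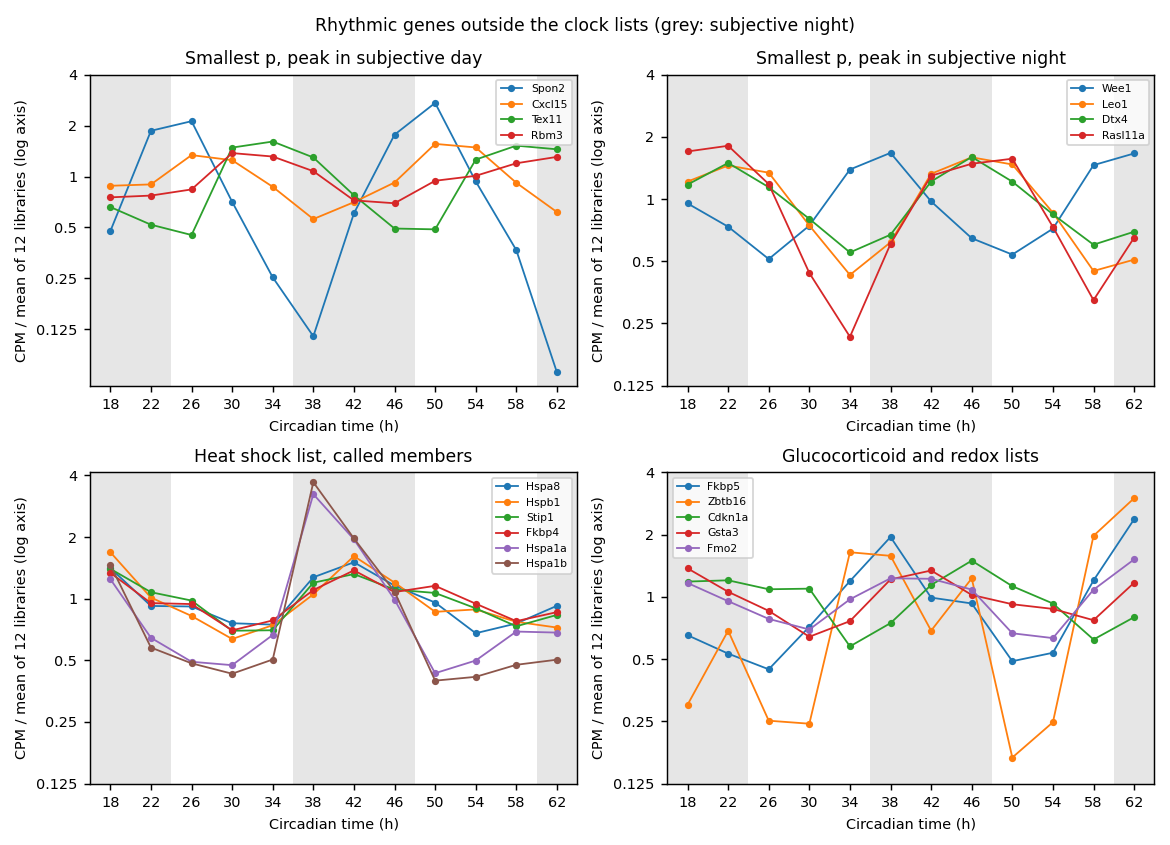
CPM divided by the mean of the 12 young lung libraries (vertical, log axis) against circadian time in h (horizontal) for rhythmic genes outside the clock lists, 1 point per library, grey for subjective night. Spon2 crests at CT 26 and CT 50 and Wee1 at CT 38 and CT 62. Hspa1a and Hspa1b crest at CT 38 without a matching crest at CT 62.

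In the xenobiotic and redox list 4 of 25 tested genes were rhythmic (16%), and their peaks ran from CT 11.6 to CT 17.8. Fmo2, the flavin monooxygenase of lung, was at 1645 and 2031 CPM at CT 38 and CT 62 and at 930 and 845 CPM at CT 30 and CT 54, with a peak at CT 15.8 ± 0.47 h. Gsta3, a glutathione transferase, peaked at CT 17.8 ± 0.55 h with a log2 amplitude of 0.44 ± 0.06, and all 6 night libraries (362 to 486 CPM) stood above all 6 day libraries (227 to 326 CPM). Ephx1, microsomal epoxide hydrolase, peaked at CT 11.6 and Alas1, the first enzyme of heme synthesis, at CT 12.6. The call of Alas1 (adjusted p = 0.0392) was lost without any 1 of 7 libraries (CT 26, 30, 34, 38, 46, 50 or 62). Nfe2l2, the regulator of antioxidant genes, had a log2 amplitude of 0.16 and did not pass (adjusted p = 0.181), and its targets Nqo1, Gclm, Gclc, Srxn1 and Hmox1 did not pass either.

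Single members of other lists were rhythmic. Scd1, which desaturates fatty acids, was the only call among 15 genes of surfactant and its lipids, with a peak at CT 22.8 ± 0.76 h and levels between 835 and 2631 CPM (median 2007). Adipose markers summed to between 17.9 and 236 CPM with the highest value at CT 46, and their part in the Scd1 values was not tested. The surfactant proteins Sftpc, Sftpb, Sftpa1 and Sftpd had log2 amplitudes of at most 0.12. Eln, elastin, and Timp3, an inhibitor of matrix proteases, were the 2 rhythmic genes of 18 in the extracellular matrix list, at CT 23.7 ± 0.28 h and CT 14.6 ± 0.43 h. Eln was at 194 and 223 CPM at CT 22 and CT 46 and at 97.7 and 99.7 CPM at CT 34 and CT 58, while Timp3 lost its call without the library of CT 62 (adjusted p = 0.107). Edn1, the vasoconstrictor endothelin, was the only call among 17 vascular genes, at CT 15.9 ± 0.86 h. Its call (adjusted p = 0.0279) was lost without the library of CT 26, 38, 42, 50, 54 or 62, with adjusted p up to 0.189. Wee1 and Cdkn1a were the 2 calls among 18 cell cycle genes, and Cxcl5 and Cxcl15 the 2 among 16 chemokines.

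Several groups held no rhythmic gene by edgeR: 16 genes of leukocyte adhesion and homing, 13 of innate sensing, 13 immediate early genes, 14 of cholesterol synthesis, 15 of airway tone and fluid, 84 ribosomal proteins and 90 of the respiratory chain. At an unadjusted p under 0.05 the counts were 7, 3, 2, 0, 3, 0 and 0 in that order, where 9.79% of all genes passed. By the adjusted p 1.13% of all genes were rhythmic, so an empty list of 13 to 16 genes is not set apart from them. Of the adhesion and homing list 10 members, such as Itgam, Cxcr2 and Selp, had fitted peaks between CT 3.5 and CT 4.8 and log2 amplitudes between 0.24 and 0.89. The neutrophil markers summed to 1443 CPM in the library of CT 30 and to at most 223 CPM in any other, and the part of that library in those amplitudes was not tested.

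A direct comparison of the 3 day times (CT 2, 6 and 10) with the 3 night times (CT 14, 18 and 22), 6 libraries each, asked which genes differ in level between day and night. The fit has a mean for each window and no curve, so change within a window counts as scatter. Of 18334 genes 1 passed (0.00545%), and 1206 genes had an unadjusted p under 0.05. A gene that does not pass may still differ between day and night. Nr1d1 did not pass, with a log2 day minus night difference of 2.87 ± 0.77 (adjusted p = 0.360). Its level was 45.7 to 297 CPM in the day libraries and 3.61 to 55.6 CPM in the night libraries. Pmvk, an enzyme of the mevalonate pathway, did not pass, with a log2 day minus night difference of -0.57 ± 0.11 (SE, adjusted p = 0.0640), nor did Gsta3 at -0.59 ± 0.12, Cry1 at -1.05 ± 0.21 and Rab3c, a vesicle GTPase, at -1.21 ± 0.25 (adjusted p = 0.0895 for all 3). Of genes that peak near dusk, Per3 differed by 0.07 ± 0.59 and Tef by -0.05 ± 0.42. With both windows moved by 4 h (CT 6, 10 and 14 against CT 18, 22 and 2), which was chosen after the data were seen, 55 genes passed, 29 higher in the first window and 26 lower. Dbp was then higher by 4.15 ± 0.42 on the log2 scale and Arntl was lower, at -2.43 ± 0.36. Moved by 8 h (CT 10, 14 and 18 against CT 22, 2 and 6), 27 passed, 24 higher and 3 lower, with Wee1 higher by 1.10 ± 0.19 and Spon2 at -2.39 ± 0.49.

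Lung of older mice put the same question to libraries whose cosine and sine did not enter the test of young lung. There 544 of 18334 genes were rhythmic (2.97%) when the aged and old libraries were averaged, 24 libraries against 12. Both tests share 1 filter and 1 estimate of the spread, which the older libraries helped to set. The 2 lists are therefore not independent, and genes of low spread are favoured in both. Of the 207 genes of young lung, 164 were also called in older lung (79.2% of the young list and 30.1% of the older list), and in 161 of these the 2 peaks differed by under 2 h. The median shift was -0.10 h (older minus young). All 16 rhythmic clock genes of young lung were called in older lung. Dbp peaked at CT 9.41 there with a log2 amplitude of 2.85, Arntl at CT 22.9 with 1.77 and Nr1d1 at CT 7.67 with 2.67. The 6 heat shock genes were called too, with Hspa8 at CT 18.4 (log2 amplitude 0.41, adjusted p = 1.67e-03) and Hspa1a at CT 16.3 (0.91, adjusted p = 1.64e-03). Spon2 and Cxcl5 peaked at CT 1.23 and CT 23.0. In older lung 57.4% of rhythmic genes peaked in the night. Among the 43 genes that were not called in older lung, 34 still had a peak within 2 h of the young one. Serpina3h and Gm10371 were among those not called (adjusted p = 0.152 and 0.517).

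Heart and kidney of young mice were compared with young lung over all genes tested, whether or not they were rhythmic in lung. The test compares cosine and sine together, so it answers to amplitude and peak at once. It called 222 of 18409 genes for lung against heart (1.21%) and 340 for lung against kidney (1.85%), and both contrasts use the same lung libraries. Of the 207 rhythmic genes of young lung, 34 were among those called against heart and 42 among those called against kidney. In this fit of 36 young libraries the spread is shared over 3 organs, and the lung amplitudes and peaks differ slightly from those above. Its calls in lung differ more, with 989 rhythmic genes against 207.

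Both REV-ERB genes swung more widely in lung. Nr1d1 had a log2 amplitude of 2.97 ± 0.20 in lung, 1.60 ± 0.09 in heart and 1.97 ± 0.17 in kidney (adjusted p = 0.00356 against heart and 0.00383 against kidney). Its crests were 297 and 243 CPM in lung, and its highest level was 170 CPM in heart and 120 CPM in kidney. Nr1d2 had log2 amplitudes of 1.86 ± 0.10, 1.06 ± 0.06 and 1.17 ± 0.09 in the same order (adjusted p = 0.00163 and 0.00190). Against heart, Npas2 (2.15 against 1.19, adjusted p = 0.00758) and Dbp (2.85 against 2.08, adjusted p = 0.00779) also had larger amplitudes in lung. The troughs of Dbp differed more than its crests, with 9.28 CPM as its lowest level in lung and 19.5 CPM in heart.

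Kidney differed from lung in other clock genes. Cry1 had a smaller log2 amplitude in lung (0.86 ± 0.11) than in kidney (1.58 ± 0.09, adjusted p = 0.0116), and so did Ciart (0.75 ± 0.34 against 2.42 ± 0.18, adjusted p = 0.00828), whose lowest level was 4.41 CPM in lung and 0.836 CPM in kidney. Its highest level was 42.1 CPM in lung and 27.6 CPM in kidney. Ciart was not called in lung in this fit (adjusted p = 0.0952). It was at 21.6 CPM at CT 22 and 8.61 CPM at CT 46 in lung, and the part of the CT 22 library in the difference was not tested. Hlf swung more widely in lung (1.12 ± 0.16) than in kidney (0.39 ± 0.06, adjusted p = 0.00309) and peaked at CT 11.7 against CT 13.9. Tef peaked at CT 11.95 in lung and CT 10.6 in kidney, with log2 amplitudes of 1.02 and 0.67 (adjusted p = 0.00255). For Arntl, Per1, Per2, Per3 and Cry2 neither contrast passed, with adjusted p between 0.185 and 0.922.

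Outside the clock, Adm stood out in lung against both organs. Adm ranged from 3.05 to 16.8 CPM in lung (median 6.79), from 7.77 to 13.2 CPM in heart and from 7.07 to 11.96 CPM in kidney. Its log2 amplitudes were 1.10 ± 0.09, 0.21 ± 0.09 and 0.25 ± 0.06 (adjusted p = 1.03e-04 and 1.46e-06). Adra1a, the alpha-1A adrenergic receptor, was rhythmic with nearly opposite timing in lung and heart: CT 22.6 ± 0.66 h against CT 9.78 ± 0.92 h (adjusted p = 7.19e-05). In lung it was at 23.9 and 22.6 CPM at CT 22 and CT 46 and in heart at 15.6 and 23.1 CPM at CT 34 and CT 58. Mreg, melanoregulin, peaked at CT 1.28 in lung and CT 12.8 in kidney (adjusted p = 3.27e-05), although the lung rhythm of Mreg was called only at an adjusted p of 0.0391 and was lost without the library of CT 26, 34, 38, 42, 50, 58 or 62 (adjusted p up to 0.157) and with times of day as levels. Fam210b, a mitochondrial protein, peaked at CT 22.1 in lung, with 54.2 to 55.7 CPM at its crests, and at CT 7.84 in kidney (adjusted p = 5.82e-06).

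The remaining named differences are rhythms of the other organ. Ppard, a fatty acid receptor, ran from 17.5 to 97.0 CPM in kidney and from 21.1 to 30.6 CPM in lung, with log2 amplitudes of 1.25 ± 0.09 and 0.05 ± 0.07 (adjusted p = 7.67e-09). Nt5e, which makes adenosine outside cells, had a log2 amplitude of 0.91 ± 0.11 at CT 21.4 in kidney and 0.29 ± 0.09 at CT 10.5 in lung (adjusted p = 7.48e-06). Mid1ip1, a regulator of fat synthesis, and Ppat, the first enzyme of purine synthesis, had log2 amplitudes of 0.57 ± 0.05 and 0.61 ± 0.08 in heart and of 0.11 ± 0.06 and 0.08 ± 0.02 in lung (adjusted p = 7.19e-05 for both).

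**Figure D5:**
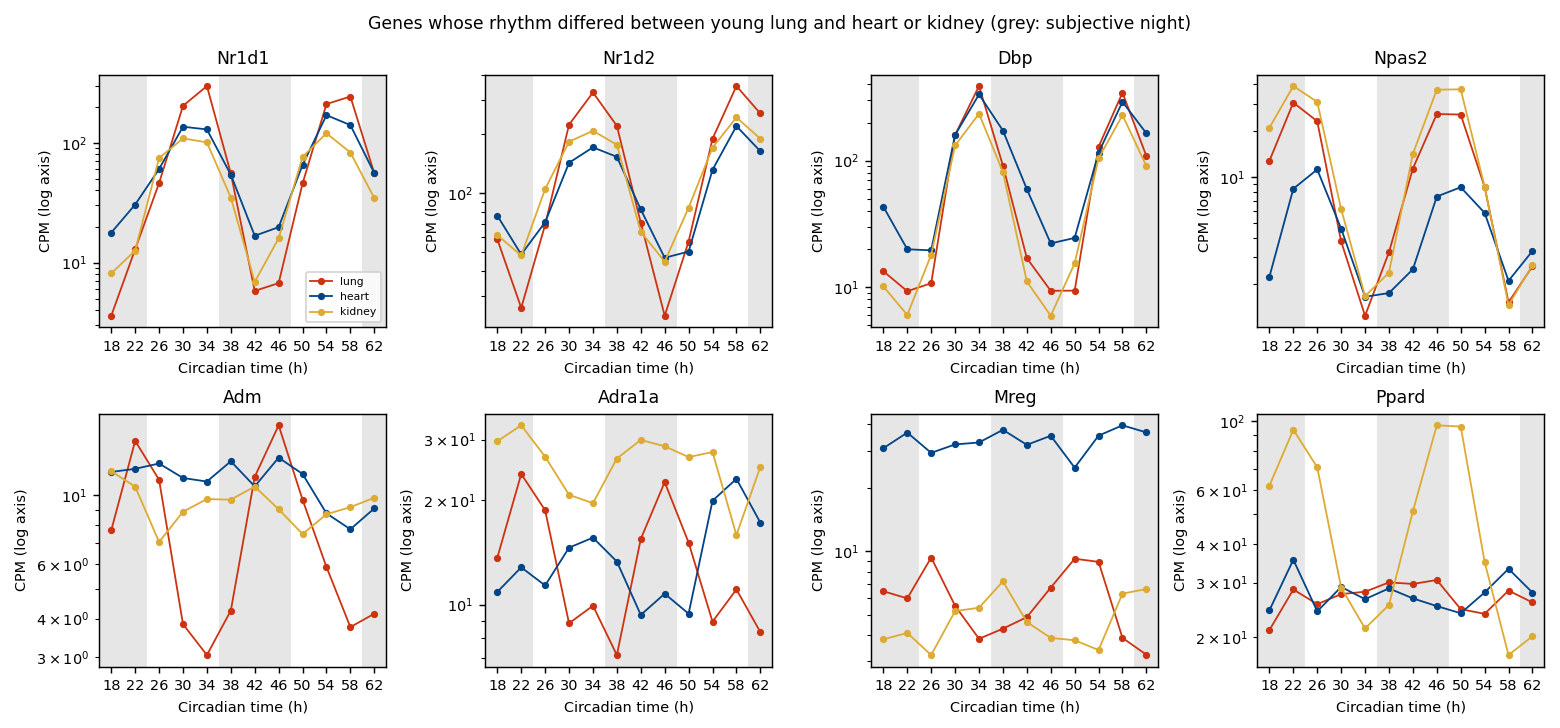
CPM on a log axis (vertical) against circadian time in h (horizontal) for 8 genes in young lung (red), heart (blue) and kidney (yellow), 1 point per library, grey for subjective night. Nr1d1 and Nr1d2 span the widest range in lung, Dbp falls to a lower trough in lung than in heart, Adra1a crests at opposite times in lung and heart, and Ppard spans 17.5 to 97.0 CPM in kidney and 21.1 to 30.6 CPM in lung.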

How the data were processed

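RNA of 36 lung libraries and of 24 young heart and kidney libraries was analysed. The authors deposited whole-number counts per gene, not normalised. Per the submitters' processing notes, HISAT2, HTSeq and GRCm38 (mm10) were used, and per the labels' protocols the RNA was extracted with Trizol and made into poly(A) libraries. Use of strand is not given in the sources used here, so 47 rhythmic genes that overlap another tested gene, and near-identical copies, are uncertain. No pair of young lung libraries lay within sampling noise (lowest chi-square per degree of freedom 7.34, 66 pairs).

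Counts were tested with edgeR 4.0.16 (R 4.3.3): filterByExpr by age, TMM factors, robust glmQLFit and glmQLFTest on the cosine and sine of each age (period 24 h), two-sided, with Benjamini-Hochberg adjustment over all genes tested. Lung, heart and kidney of young mice were fitted likewise by tissue. Amplitude, peak and their SE came from least squares on log2 CPM (prior count 2). CPM (counts-per-million) uses the library total. The procedure was tested on simulated data.

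Named genes were all clock genes, the 12 of smallest p and the 5 of largest amplitude for day and for night outside the clock, every rhythmic member of a function list and the 5 of smallest p per organ contrast. Members and lists were chosen with earlier results of these data known. Alternatives were median-of-ratios factors, no filter, DESeq2 1.42.0, a linear trend, times as levels, the 12 libraries alone, circadian time as a block, an adjusted p under 0.01, a prior count of 0.5 and each library left out. Some items are not reported here.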

Additional observations from a re-analysis of the deposited data

Results flagged for a closer look

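Rhythms that differed between organs by the interaction test of edgeR with Benjamini-Hochberg adjustment (lung minus the other organ, 12 libraries each) are gathered here. Between lung and heart, Mid1ip1, Ppat and Adra1a had an adjusted p of 7.19e-05 and Adm of 1.03e-04, and among clock genes Nr1d2 had 0.00163, Nr1d1 0.00356, Npas2 0.00758 and Dbp 0.00779. Peaks of lung and heart differed by -2.09 h for Npas2, while for Nr1d1 the log2 amplitude was larger in lung by 1.36. Between lung and kidney, Ppard had 7.67e-09, Adm 1.46e-06, Fam210b 5.82e-06, Nt5e 7.48e-06 and Mreg 3.27e-05, and among clock genes Nr1d2 had 0.0019, Tef 0.00255, Hlf 0.00309, Nr1d1 0.00383, Ciart 0.00828 and Cry1 0.0116. The lung minus kidney difference in log2 amplitude was -1.66 for Ciart and -0.73 for Cry1. For Ciart the part of the high lung library of CT 22 in this value was not tested.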

How the results depend on the processing

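Counts of rhythmic genes in young lung depended on the test. DESeq2 called 470 (167 day, 303 night), the fit in which young lung, heart and kidney share the spread 989 (412 and 577), the 12 young libraries alone 251 (83 and 168), times of day as levels 139, a linear trend 152, and an adjusted p under 0.01 called 107 (33 and 74). Leaving out 1 library gave 120 to 217 genes, 39 to 66 in the day and 81 to 164 in the night. Genes shared with older lung numbered 316 by DESeq2, 97 at an adjusted p under 0.01 and 106 to 162 with 1 young library left out, and those of older lung 973 by DESeq2 and 265 at 0.01. The day minus night contrast called 19 genes by DESeq2 and 1 to 4 with 1 library left out (4 without CT 22), 55 and 27 with both windows moved. Lung against heart called 495 genes by DESeq2, 61 at an adjusted p under 0.01 and 168 to 277 with 1 lung library left out, and lung against kidney 628, 111 and 251 to 420. With circadian time, which the replicate numbers name, as a block the counts were 242 and 313. Among the 73 named genes no young lung rhythm was counted as reversed, and this covers no other gene or comparison. A change of test or threshold alone leaves the fitted peak as it was, so such settings could not show a reversal. Of the 73 named genes 71 stayed on their side of the threshold with median-of-ratios factors, 66 without a filter and 72 by DESeq2, which added Clock. With times of day as levels 17 lost their call, among them Dpy19l3, Rasd2, Fmo2, Ephx1, Timp3 and Usp2, and Ciart gained one. The cause was not tested. Within young lung no paired analysis was possible because each time has 1 library.

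With 1 library per time, 1 stray library can end or make a call, as for Ciart and Apoa2, and low genes such as Afm rest on few counts. A pool of 2 samples per time leaves the spread between animals unmeasured.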

Other observations

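A cluster of neighbouring genes on chromosome 6 was noticed among the rhythmic genes after their values were seen. Only rhythmic members are listed, and the other tested genes of the interval were not counted. Alms1-ps1, which overlaps Nat8f3 on the opposite strand, was tested and did not pass (adjusted p = 0.337). Nat8, Nat8f3, Nat8f5 and Nat8f7, a family of N-acetyltransferases, and the pseudogene Alms1-ps2 lie between 85706727 and 85832082 (GRCm38) and peaked at CT 14.5, 15.1, 16.9, 15.5 and 15.6. Nat8f3, with 2.23 CPM at CT 26 as its lowest value, 5.85 as its median and 7.78 CPM at CT 58 as its highest, and Nat8f7 (0.773 to 3.29 CPM) carry most of the counts. These copies resemble each other, and how reads were divided between them is not given in the sources used here. The calls were fragile. Nat8f3 lost its call without the library of CT 26, 30, 42, 50 or 54 (adjusted p up to 0.135), Nat8f7 without that of CT 50 (0.0502) and Alms1-ps2 without that of CT 50 or CT 62 (up to 0.0871). Nat8 kept its call only without CT 42 or CT 46, and Nat8f5 only without CT 22 or CT 50, of the fits in which it was tested.

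Further rhythmic genes outside the lists were picked singly after their values were seen, and stand for no group. Prdx6, a peroxiredoxin, peaked at CT 16.4 and ran from 983 to 1709 CPM, Akr1c14, an aldo-keto reductase, peaked at CT 15.9 (122 to 414 CPM), Sult1a1, a sulfotransferase, at CT 15.5 (48.5 to 111 CPM) and Aldh2, an aldehyde dehydrogenase, at CT 17.6 (725 to 1148 CPM). Prdx6 (adjusted p = 0.0450) lost its call without any 1 of 9 libraries, with adjusted p up to 0.187, Akr1c14 (0.0392) without that of CT 18, 26, 30, 38, 42 or 62 (up to 0.219), Aldh2 without that of CT 30, 42 or 62 (up to 0.115) and Sult1a1 without that of CT 62 (0.0547). Akr1c14 was at 367 and 414 CPM at CT 38 and CT 62 and at 144 and 160 CPM at CT 34 and CT 58. Avpr1a, the vasopressin V1a receptor, peaked at CT 22.4 with a log2 amplitude of 0.97 ± 0.13, from 1.43 CPM at CT 34 to 7.69 CPM at CT 26. Klf15 and Cipc, both known clock-linked regulators, peaked at CT 13.9 and CT 12.6, and Klf15 lost its call without the library of CT 26, 50 or 62 (adjusted p up to 0.212).

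The calls of 3 rhythmic genes rest on the library of CT 38, which stood apart in liver markers. Apoa2 was at 16.1 CPM there and at most 0.953 CPM elsewhere, Hnf4a at 2.30 CPM and at most 0.196 CPM elsewhere, and Afm at 0.727 CPM and at most 0.0455 CPM elsewhere. Without that library Hnf4a and Afm had an adjusted p of 0.649 and 0.805, and Apoa2 did not pass either. Afm also lost its call without the library of CT 22, 30, 46, 50 or 54 (adjusted p up to 0.0901).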
